A study of Homo sapiens with 24 samples.

Results

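The transcripts described here are AXL, NGFR, WNT5A, SOX9, ZEB1, ZEB2, SNAI2, TGFBI, CAV1 and ANKRD1, 10 genes that have been studied in the phenotype states of melanoma cells. They were taken by gene name from a table of 60504 rows, and each name matched 1 row. RNA was sequenced from 3 human cancer cell lines 48 hours after transfection with a small interfering RNA against GCDH (siGCDH) or a control one (siControl). The product of GCDH, glutaryl-CoA dehydrogenase, breaks down lysine and tryptophan in mitochondria. The groups of 3 libraries each were siControl and siGCDH of A375 (labelled melanoma) in batch 1, A375 in batch 2, SK-Hep1 (labelled liver) and SKBR3 (labelled breast), 24 libraries in all. Batch 1 was made with QuantSeq, a kit for 3′ ends of polyadenylated transcripts, and the other 18 libraries with poly(A) selection and the NEBNext Ultra II directional kit. Batch and kit cannot be told apart within A375. Replicates were wells seeded in triplicate, so the p-values measure the spread between wells, which may be technical.

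In melanoma, cells of the invasive state carry little of the melanocyte programme and express receptor tyrosine kinases such as AXL, the neurotrophin receptor NGFR (also a marker of neural crest-like cells) and the ligand WNT5A. SOX9, ZEB1, ZEB2 and SNAI2 are transcription factors of the neural crest and of the epithelial-mesenchymal transition, and in melanoma ZEB2 and SNAI2 are known for the differentiated state and ZEB1 for the dedifferentiated one. TGFBI is a matrix protein induced by TGF-beta, CAV1 is the scaffold of caveolae, and ANKRD1 is a widely used target of the co-activator YAP and its DNA-binding partners, the TEAD factors.

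Values are TPM, a relative abundance corrected for the length of the transcript. TPM levels of batch 1, read from 3′ ends, do not compare with those of the other libraries. GCDH was lower in each siGCDH group than in its control, without overlap. Its log2 fold changes were -2.21 in A375 batch 2, -1.78 in the libraries labelled SKBR3, -1.48 in SK-Hep1 and, not called, -1.42 in A375 batch 1. The ratios of mean TPM, in the same order, were 0.178, 0.264, 0.293 and 0.208. Log2 values were taken after adding 1 TPM, which understates changes at low levels such as 4.41 TPM in batch 1 siControl. Of 8 melanocyte markers, A375 held SOX10 (457 TPM in batch 2 siControl), S100B (114 TPM) and MITF (11.6 TPM), with MLANA, PMEL, TYR and DCT below 1 TPM. SK-Hep1 had the hepatocyte markers ALB, APOA1, TTR and HNF4A at 0 in siControl, with SERPINA1 at 9.59 TPM and AFP at 0.69 TPM, its 6 endothelial markers summed to 0.09 to 0.19 TPM, and KRT8, KRT18 and KRT19 were at 2317, 2687 and 1262 TPM. The libraries labelled SKBR3, a line known for amplified ERBB2, held ERBB2 at 25.5 TPM, below A375 batch 2 (32.7 TPM), and 9 luminal breast markers summed to 65.9 to 69.3 TPM against 6250 to 6511 TPM in SK-Hep1. They are called the libraries labelled SKBR3 for that reason. Rows of 4 genes in the ribosomal RNA region of chromosome 21 took 17.1 ± 2.07% (SD, n = 3) of all TPM in batch 1 siControl and 33.0 ± 1.65% in siGCDH, and less than 0.1% elsewhere. These rows, called the ribosomal RNA rows below, are annotated as long intergenic RNAs. They were chosen for a high mean in batch 1, so their high share there against the other libraries was partly fixed by the choice.

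Across the 4 comparisons of siGCDH with siControl, the 10 genes did not all move in 1 direction. In A375 batch 2 AXL, NGFR, CAV1 and ANKRD1 rose and TGFBI fell. In SK-Hep1 AXL, ZEB1, ZEB2, SNAI2 and ANKRD1 rose, and WNT5A, SOX9 and CAV1 fell. The libraries labelled SKBR3 showed higher ZEB2 and CAV1 and lower SOX9 and SNAI2, and A375 batch 1 higher ANKRD1 and lower TGFBI. A gene was called when the adjusted p of limma (on log2(TPM + 1), Benjamini-Hochberg over all genes whose mean reached 1 TPM in the 6 libraries) was under 0.05.

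Read against all genes, these counts were as follows. In A375 batch 2, 4 of 8 tested members rose and 1 fell, where 17.9% of all 15185 tested genes rose and 15.7% fell. In SK-Hep1, 5 of 9 rose and 3 fell, against 37.3% and 18.2% of 14557 genes. In the libraries labelled SKBR3, 2 of 7 rose and 2 fell, against 47.3% and 14.7% of 16494 genes. In A375 batch 1, 1 of 8 rose and 1 fell, against 1.18% and 6.73% of 12868 genes. These shares of all genes also apply beside the counts of other listed genes given further on. Members below the TPM limit were SOX9 and SNAI2 in both A375 batches, NGFR in SK-Hep1, and AXL, TGFBI and ANKRD1 in the libraries labelled SKBR3.

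The median log2 fold change of all tested genes was -0.20 for batch 1, 0.02 for batch 2, 0.18 for SK-Hep1 and 0.29 for the libraries labelled SKBR3. After scaling all libraries to the same median, the genes called higher and lower went from 152 and 866 to 205 and 293 in batch 1. The same scaling moved them from 5432 and 2644 to 4122 and 3368 in SK-Hep1, and from 7805 and 2431 to 4845 and 4222 in the libraries labelled SKBR3. With the 4 ribosomal RNA rows left out, batch 1 gave 269 higher and 219 lower. Among the members, median scaling ended the calls of TGFBI in batch 1, SNAI2 in SK-Hep1 and CAV1 in the libraries labelled SKBR3, and added AXL in batch 1 and WNT5A in batch 2. In bulk RNA, a change in the share of cells that express a gene and a change in RNA per cell cannot be told apart.

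Marker lists also moved with siGCDH. In SK-Hep1 the 7 fibroblast markers, 5 of them at 1 TPM or more, summed to 247 to 262 TPM with siControl and 65.2 to 67.1 TPM with siGCDH. The 9 luminal epithelial markers, 6 of them at 1 TPM or more, went from 6250 to 6511 TPM down to 3383 to 3511 TPM there. That fall lay in KRT8 (-1.29, from 2317 to 949 TPM) and KRT18 (-1.28, from 2687 to 1109 TPM), while GATA3 fell (-0.56), ERBB2 (0.46) and EPCAM (0.56) rose and KRT19 had 0.01 (not called). The 6 hepatocyte markers of SK-Hep1 summed to 8.81 to 11.6 TPM and 36.1 to 37.6 TPM, with SERPINA1 (1.77, to 34.9 TPM) and AFP (0.82, to 1.99 TPM) called higher. The sums of the luminal markers went from 340.5 to 343 TPM down to 214 to 224 TPM in A375 batch 2, from 109.5 to 126 TPM down to 46.6 to 59.9 TPM in batch 1 (KRT8 -1.79 and KRT18 -1.25, both called), and from 65.9 to 69.3 TPM up to 97.7 to 107 TPM in the libraries labelled SKBR3. The fall in batch 2 lay mostly in KRT18 (-0.81, from 271 to 154 TPM). ERBB2 also fell there (-0.57), CLDN4 rose (1.53) and KRT8 had -0.10 (not called). In batch 1 the other tested luminal markers were not called, CLDN4 with 1.18.

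Of the 8 melanocyte markers, the sum in A375 was mostly SOX10. In batch 2 the sums were 565 to 594 TPM and 568 to 625 TPM, ranges that overlapped, while its members moved in both directions. MITF, the master regulator of melanocytes, rose from 11.6 to 22.1 TPM (0.87, limma adjusted p = 0.00057), S100B fell from 114 to 50.8 TPM (-1.16, limma adjusted p = 1.77e-05), and SOX10 rose from 457 to 530.5 TPM (0.21, limma adjusted p = 0.011). In batch 1 the sums were 198 TPM and 137 to 169 TPM, and MITF (0.23), S100B (-0.71) and SOX10 (-0.38) were not called. The sums of the libraries labelled SKBR3 were 9.35 to 9.80 TPM and 19.0 to 22.5 TPM. That rise lay mostly in PMEL (1.51, from 3.49 to 11.8 TPM). MITF went from 5.50 to 7.27 TPM there and was not called (0.34), and SOX10 was at 0 in both groups. The part of these marker genes in the results of the members was not tested.

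**Figure D1:**
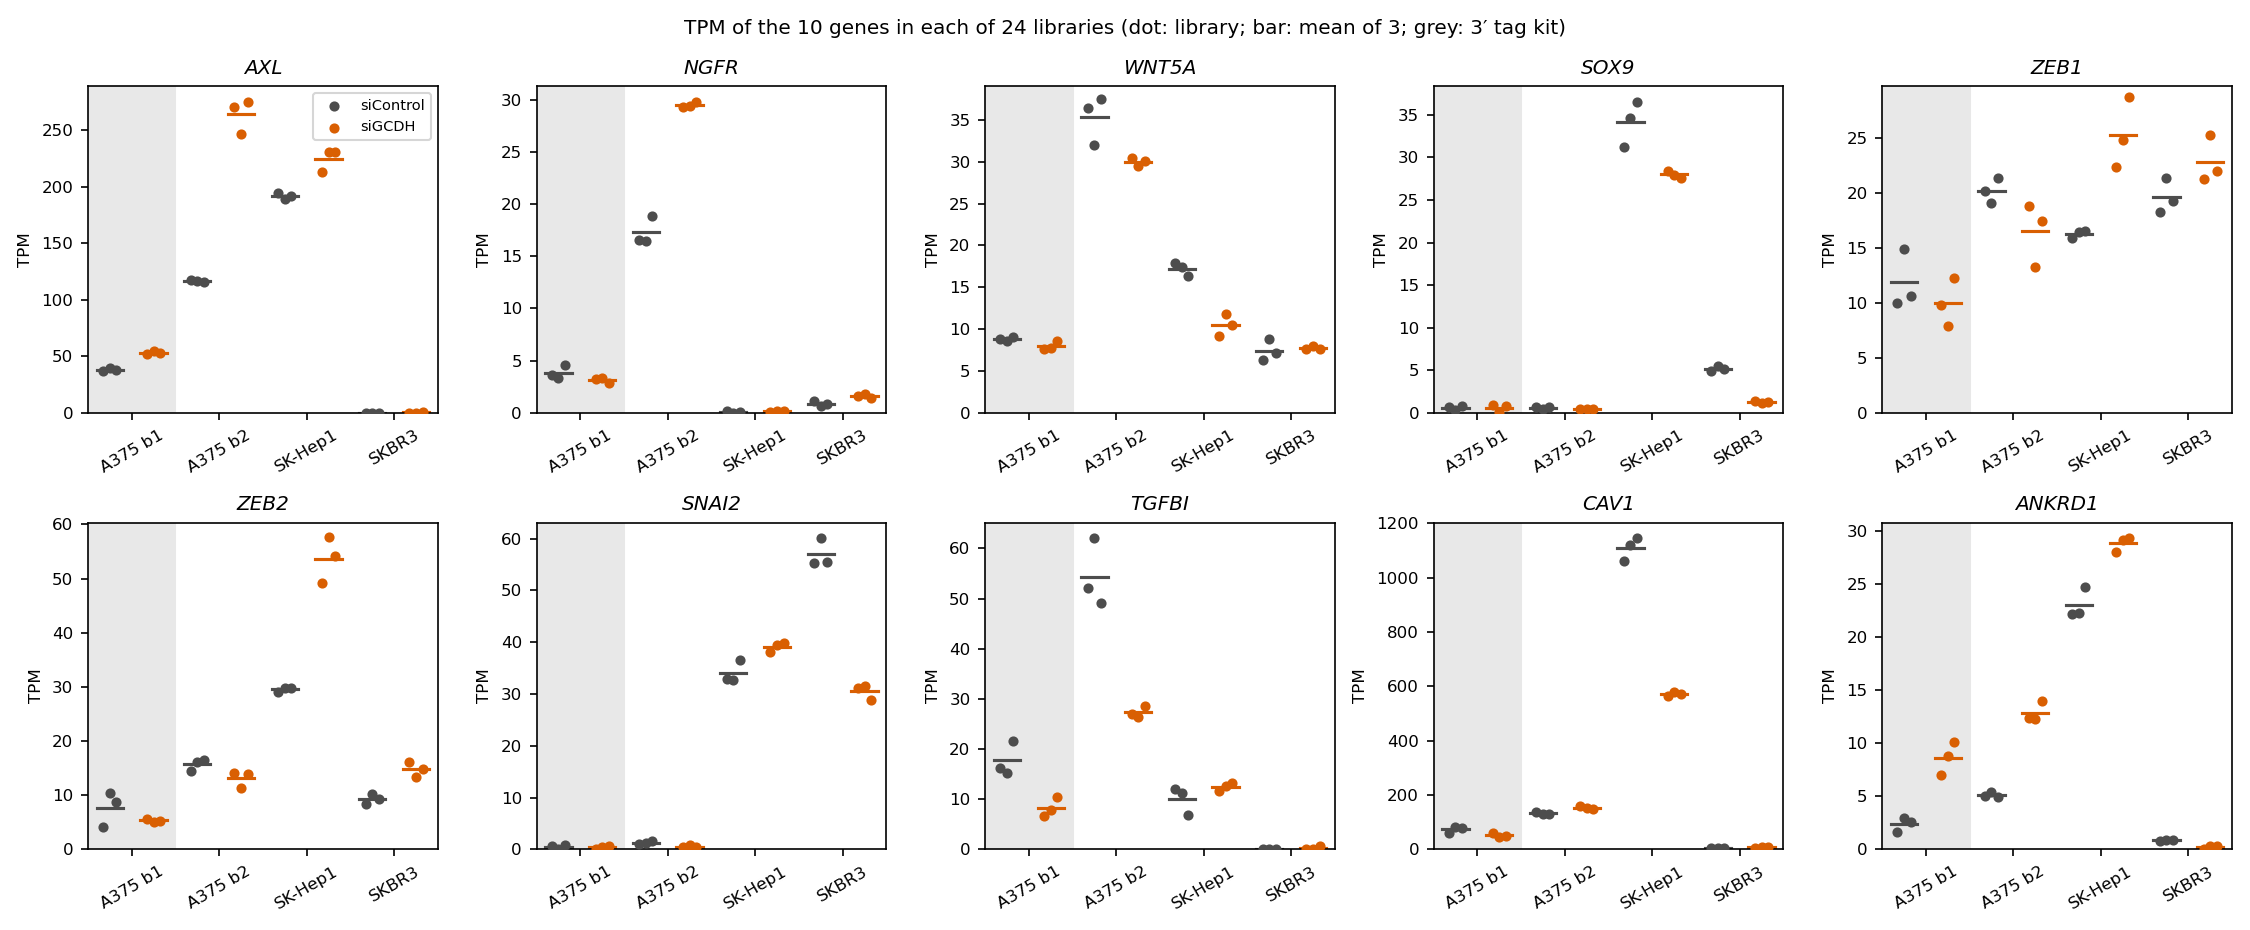
TPM (y axis, linear from 0) of each of the 10 genes in all 24 libraries, by line and batch (x axis). Dots are libraries, bars are means of 3, grey dots siControl, orange dots siGCDH, and the grey field marks the 3′ tag kit. AXL in A375 batch 2 lies between 116 and 118 TPM with siControl and between 247 and 275 TPM with siGCDH.

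**Figure D2:**
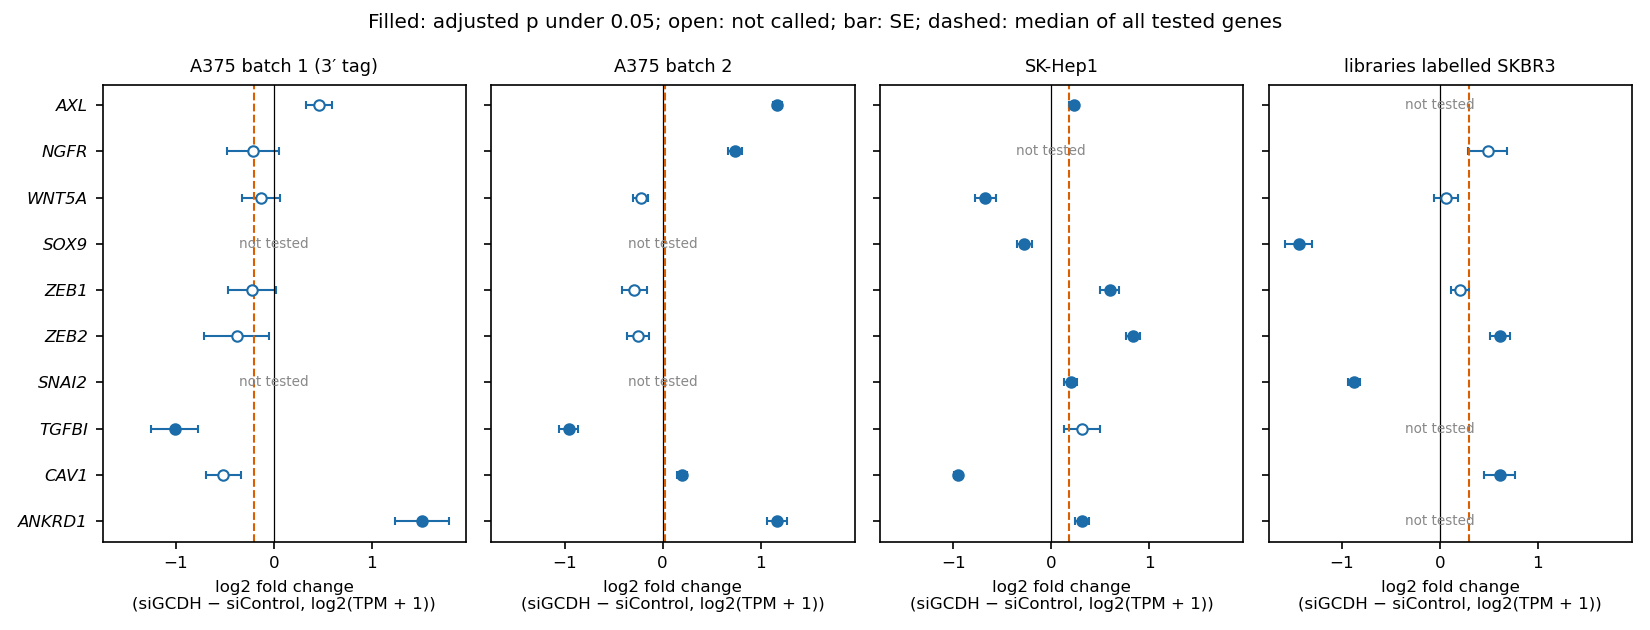
Log2 fold change of siGCDH against siControl on the log2(TPM + 1) scale (x axis) for each gene (y axis) in the 4 comparisons. Bars are SE, filled points have an adjusted p under 0.05, and the dashed line is the median of all tested genes (-0.20, 0.02, 0.18 and 0.29). CAV1 stands at 0.20 in A375 batch 2 and at -0.95 in SK-Hep1.

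AXL is a receptor tyrosine kinase of the TAM family, activated by the ligand GAS6, and a reported target of YAP. It lies on hg38 chromosome 19 (41219203 to 41261766, plus strand, GENCODE 29). The promoter windows of its start sites in RefSeq (GRCh38.p14, 250 bases before to 50 after the start) are shown. They were chosen because AXL and ANKRD1 were both called higher in A375 batch 2 and in SK-Hep1. In SK-Hep1 their log2 fold changes were 0.23 and 0.31, against a median of 0.18 over all genes. Capitals mark letters searched on both strands: GGAATG for TEAD, TGANTCA for AP-1 and CACCTG for the E-box that ZEB and Snail proteins bind. In AXL they are an E-box on the reverse strand of the first window and a TEAD match on the reverse strand of the second, with no overlap between motifs. Over 35116 windows of this length, 14.0% hold the TEAD letters, 7.71% the AP-1 letters and 20.6% the E-box letters. These shares are per window, and AXL has 2 windows. Binding to these letters, in AXL or in ANKRD1, was not tested.
AXL chr19:41218973-41219272, plus strand: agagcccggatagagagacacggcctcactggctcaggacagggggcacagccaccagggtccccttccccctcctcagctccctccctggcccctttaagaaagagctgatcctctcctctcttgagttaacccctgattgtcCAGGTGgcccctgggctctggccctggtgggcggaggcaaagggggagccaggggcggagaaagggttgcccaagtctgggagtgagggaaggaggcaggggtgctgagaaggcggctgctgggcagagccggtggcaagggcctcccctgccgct
AXL chr19:41226505-41226804, plus strand: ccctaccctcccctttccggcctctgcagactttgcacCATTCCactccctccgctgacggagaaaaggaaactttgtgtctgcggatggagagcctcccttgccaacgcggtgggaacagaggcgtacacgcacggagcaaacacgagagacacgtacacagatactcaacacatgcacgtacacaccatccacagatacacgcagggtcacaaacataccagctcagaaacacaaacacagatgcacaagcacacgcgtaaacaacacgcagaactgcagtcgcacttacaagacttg

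AXL stood at 118, 117 and 116 TPM in the siControl libraries of A375 batch 2 and at 271, 247 and 275 TPM with siGCDH. All siGCDH libraries lay above all siControl libraries, a ratio of means of 2.27 (log2 fold change 1.17, SE 0.05, limma adjusted p = 9.37e-06). In A375 batch 1 the values were 36.8, 39.6 and 38.3 TPM against 51.8, 54.4 and 53.0 TPM. The groups again did not overlap, but the log2 fold change of 0.46 (SE 0.13) was not called (limma adjusted p = 0.0735). It was called in the joint fit of all 24 libraries (limma adjusted p = 7.56e-05), which pools the spread of batch 1 with that of the other libraries. Over all genes of batch 1, that fit moved the calls from 152 higher and 866 lower to 1408 and 4150. AXL had 0.66 after median scaling (limma adjusted p = 0.0351) and 0.77 with the ribosomal RNA rows left out (limma adjusted p = 0.0274). The log2 fold change was higher in batch 2 by 0.71 (SE 0.10, limma interaction adjusted p = 0.00429).

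SK-Hep1 had AXL at 195, 189 and 192 TPM with siControl, above A375 batch 2, and at 213, 231 and 231 TPM with siGCDH. The groups did not overlap, and the log2 fold change of 0.23 (limma adjusted p = 0.00405) lay near the median of all genes, 0.18. After median scaling it was 0.11 (limma adjusted p = 0.0499). The libraries labelled SKBR3 had AXL at 0.09, 0.16 and 0.11 TPM with siControl and at 0.31, 0.38 and 0.62 TPM with siGCDH, too low for the test.

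The TAM list holds AXL and 4 other genes. GAS6 rose in A375 batch 2 (0.70, from 8.22 to 14.0 TPM), in SK-Hep1 (1.20, from 131 to 302 TPM) and in the libraries labelled SKBR3 (0.96, from 9.63 to 19.5 TPM). The sister receptor TYRO3 fell in batch 2 (-0.89) and in SK-Hep1 (-0.52), and the ligand PROS1 fell in batch 2 (-0.87) and rose in SK-Hep1 (0.51) and in the libraries labelled SKBR3 (0.24). MERTK was below the TPM limit in A375 and rose in the libraries labelled SKBR3 (0.47). In A375 batch 1 GAS6 had a log2 fold change of -0.52, and limma called 0 of the 3 other genes tested (0 at an unadjusted p under 0.05).

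NGFR (chromosome 17, 49495293 to 49515017, plus strand) is the low-affinity neurotrophin receptor p75. A375 batch 2 had it at 16.6, 16.5 and 18.9 TPM with siControl and at 29.3, 29.4 and 29.8 TPM with siGCDH. The groups were apart, with a ratio of 1.71 (log2 fold change 0.74, SE 0.08, limma adjusted p = 0.0004). Batch 1 gave 3.68, 3.30 and 4.63 TPM against 3.29, 3.33 and 2.90 TPM, groups that overlapped (log2 fold change -0.22, limma adjusted p = 0.667). The log2 fold change was higher in batch 2 by 0.96 (SE 0.20, limma adjusted p = 0.0237), a difference that was not called after median scaling (0.74, limma adjusted p = 0.115), with the replicate block, or without any 1 of the 6 batch 2 libraries.

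In SK-Hep1 NGFR did not pass 0.20 TPM in any library. In the libraries labelled SKBR3 it was at 1.11, 0.68 and 0.90 TPM with siControl and at 1.64, 1.86 and 1.45 TPM with siGCDH. These groups did not overlap, but the log2 fold change of 0.49 missed the threshold (limma adjusted p = 0.0646) and was called without the mean-variance trend (limma adjusted p = 0.0108) and in the joint fit (limma adjusted p = 0.0033). Of the 8 other neurotrophin ligands and receptors listed, 2 were tested in each A375 batch, and BDNF rose in batch 2 (0.68, from 2.23 to 4.14 TPM). In SK-Hep1 4 were tested, of which 3 rose and 1 fell. This line, which had the lowest NGFR, showed higher sortilin SORT1 (1.07) and lower NTRK3, the receptor of neurotrophin-3 (-1.46, from 10.9 to 3.29 TPM). SORT1 also rose in the libraries labelled SKBR3 (0.90).

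WNT5A (chromosome 3, 55465715 to 55490539, minus strand) is the main ligand of non-canonical WNT signalling. SK-Hep1 had it at 17.9, 17.4 and 16.4 TPM with siControl and at 9.14, 11.8 and 10.5 TPM with siGCDH. The groups were apart, and the log2 fold change was -0.67 (SE 0.10, limma adjusted p = 0.00107). In A375 batch 2 the values were 36.4, 32.0 and 37.5 TPM against 30.5, 29.5 and 30.1 TPM. Here the groups did not overlap but the log2 fold change of -0.22 missed the threshold (limma adjusted p = 0.0518). It was called with a 5 TPM filter, after median scaling and without siControl replicate 2 (limma adjusted p = 0.0404, 0.0482 and 0.0258).

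Batch 1 held WNT5A at 8.58 to 9.11 TPM with siControl and 7.59 to 8.54 TPM with siGCDH, and the libraries labelled SKBR3 at 6.35 to 8.83 and 7.63 to 7.95 TPM, neither of them called. WNT5A-AS1, an antisense gene that overlaps WNT5A, went from 5.69 to 1.59 TPM in batch 2 and from 3.51 to 2.81 TPM in SK-Hep1. The strand setting of the counting is not given in the sources used here, so reads of a gene and its antisense partner cannot be told apart. Its part in the result was not tested.

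Of the 16 other non-canonical WNT genes, 13 were tested in batch 2 (4 higher, 2 lower), 13 in SK-Hep1 (6 and 2) and 16 in the libraries labelled SKBR3 (8 and 5), and limma called 0 of 9 in batch 1, where 1 was higher and 1 lower at an unadjusted p under 0.05. Of all tested genes, 37.3% rose and 18.2% fell in SK-Hep1, and 47.3% and 14.7% in the libraries labelled SKBR3. The receptor FZD6 rose in the 3 sets of NEBNext libraries (0.66, 0.73 and 1.19). Of the other receptors, FZD7 fell in batch 2 (-0.89), and FZD2 fell in SK-Hep1 (-0.81) and in the libraries labelled SKBR3 (-0.86). WNT5B, the paralogous ligand, fell in SK-Hep1 (-0.99), where the co-receptor ROR1 rose (0.71).

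SOX9 (chromosome 17, 72121020 to 72126420, plus strand) is a transcription factor of the neural crest and of cartilage. In the libraries labelled SKBR3 it was at 4.87, 5.51 and 5.11 TPM with siControl and at 1.36, 1.19 and 1.25 TPM with siGCDH. The groups were far apart, with a ratio of 0.245 (log2 fold change -1.44, SE 0.14, limma adjusted p = 0.000108). SK-Hep1 had 31.3, 34.6 and 36.6 TPM against 28.4, 27.9 and 27.6 TPM, a smaller fall without overlap (log2 fold change -0.27, limma adjusted p = 0.0147). It was not called without siControl replicate 3 (limma adjusted p = 0.0513) or in the joint fit (limma adjusted p = 0.198), and was larger after median scaling (-0.39).

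In A375 SOX9 did not pass 0.95 TPM in any of the 12 libraries, and no test was made. The related factor SOX10, which rose slightly in batch 2 (0.21), had 138.6 to 153 TPM with siControl and 110.0 to 119.5 TPM with siGCDH in batch 1, lower without overlap and not called (-0.38, limma adjusted p = 0.0734). It was at 0 in the siControl libraries of the other 2 lines. SOX2 (-0.99) and SOX5 (-0.50) fell in batch 2. SOX11 fell in batch 1 (-1.14), SOX13 in SK-Hep1 (-0.52) and SOX4 in the libraries labelled SKBR3 (-0.71). Over the 8 other SOX genes of the list, 1 rose and 2 fell of 7 tested in batch 2. Among the same genes limma called 0 higher in the other 3 comparisons (1 in batch 1 and 0 in both others at an unadjusted p under 0.05), and 1 lower in each.

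ZEB1 (chromosome 10, 31318495 to 31529814, plus strand) and ZEB2 (chromosome 2, 144364364 to 144524583, minus strand) are zinc finger repressors of CDH1 (E-cadherin). In SK-Hep1 ZEB2 was at 29.2, 29.8 and 29.8 TPM with siControl and at 49.2, 57.7 and 54.1 TPM with siGCDH. All siGCDH libraries were higher, a ratio of 1.81 (log2 fold change 0.83, SE 0.07, limma adjusted p = 5.36e-05). ZEB1 went the same way in this line, from 15.9, 16.4 and 16.5 TPM to 22.3, 24.9 and 28.7 TPM. The groups did not overlap (log2 fold change 0.60, SE 0.10, limma adjusted p = 0.00134).

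The libraries labelled SKBR3 also had more ZEB2 with siGCDH, 16.2, 13.4 and 14.8 TPM against 8.43, 10.2 and 9.38 TPM. The log2 fold change was 0.61 (SE 0.10, limma adjusted p = 0.00175), and 0.38 after median scaling (limma adjusted p = 0.0148). ZEB1 was at 18.3, 21.3 and 19.3 TPM against 21.2, 25.3 and 22.0 TPM there, overlapping by 1 library on each side (0.21, limma adjusted p = 0.0859). It was called with the replicate block (limma adjusted p = 0.049) and was -0.03 after median scaling.

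Both ZEB genes of A375 batch 2 stood lower with siGCDH, without overlap and without a call. ZEB1 was at 20.2, 19.1 and 21.4 TPM against 18.8, 13.3 and 17.4 TPM, and ZEB2 at 14.5, 16.2 and 16.5 TPM against 14.1, 11.3 and 13.9 TPM. Batch 1 spread more widely, with ZEB2 at 4.08, 10.3 and 8.76 TPM in siControl, and neither gene was called. ZEB1-AS1, antisense to ZEB1, went from 3.74 to 1.86 TPM in batch 2 and from 2.72 to 6.26 TPM in SK-Hep1, in the direction of ZEB1, and its part in the result was not tested.

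SNAI2 (SLUG; chromosome 8, 48917604 to 48921740, minus strand) is a Snail family repressor. In the libraries labelled SKBR3 it was at 55.4, 60.1 and 55.4 TPM with siControl and at 31.1, 31.6 and 28.9 TPM with siGCDH. The groups were far apart (ratio 0.536, log2 fold change -0.88, SE 0.06, limma adjusted p = 2.91e-05). SK-Hep1 had 33.0, 32.6 and 36.5 TPM against 38.2, 39.5 and 39.9 TPM, without overlap. Its log2 fold change of 0.20 was close to the all-gene median of 0.18 (limma adjusted p = 0.0361), and it was not called after median scaling (0.08, limma adjusted p = 0.286), in the joint fit (limma adjusted p = 0.442) or when siControl replicate 1, siControl replicate 2, siGCDH replicate 2 or siGCDH replicate 3 was left out (adjusted p from 0.0934 to 0.108).

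In A375 SNAI2 was low. Batch 2 had 1.06, 1.33 and 1.56 TPM with siControl and 0.39, 0.77 and 0.39 TPM with siGCDH, groups that did not overlap but fell under the limit for a test. In batch 1 no library passed 0.81 TPM.

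Other factors of the epithelial-mesenchymal transition and cadherins made up 16 genes beside the members. In A375 batch 2 limma called 0 higher (0 at an unadjusted p under 0.05) and 3 lower of 8 tested. In SK-Hep1 2 rose and 2 fell of 7, in the libraries labelled SKBR3 2 and 2 of 8, and in batch 1 2 fell of 9. TWIST1 fell in batch 1 (-1.03), in batch 2 (-0.70) and in the libraries labelled SKBR3 (-0.67), and SNAI1 fell in batch 1 (-1.97). PRRX1 fell in batch 2 (-0.84) and rose in the libraries labelled SKBR3 (0.85). In SK-Hep1 fibronectin FN1 fell from 376 to 106 TPM (-1.82), N-cadherin CDH2 fell (-0.61) and vimentin VIM rose (0.27). VIM fell in the libraries labelled SKBR3 (-0.16). CDH1 was at 0 in A375 batch 2 and SK-Hep1 siControl libraries, and had a log2 fold change of 0.18 in the libraries labelled SKBR3 that was not called. EPCAM rose there (1.14, from 1.90 to 5.37 TPM).

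TGFBI (chromosome 5, 136028895 to 136063818, plus strand) fell in both A375 batches. Batch 2 had 52.1, 62.1 and 49.1 TPM with siControl and 27.0, 26.4 and 28.7 TPM with siGCDH. The groups were far apart, with a ratio of 0.503 (log2 fold change -0.96, SE 0.09, limma adjusted p = 0.000304). In batch 1 the values were 16.3, 15.3 and 21.6 TPM against 6.66, 7.95 and 10.4 TPM, also without overlap. The log2 fold change there was -1.01 (SE 0.24, limma adjusted p = 0.0431), against a median of -0.20 over all genes. This call was lost with no filter (limma adjusted p = 0.0777), without the trend (limma adjusted p = 0.0851), after median scaling (-0.81, limma adjusted p = 0.0842), with the ribosomal RNA rows left out (-0.74, limma adjusted p = 0.144), with the replicate block (limma adjusted p = 0.0626) and without any 1 of the 6 libraries (adjusted p from 0.0571 to 0.132).

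In SK-Hep1 TGFBI was at 12.02, 11.2 and 6.91 TPM with siControl and at 11.6, 12.6 and 13.2 TPM with siGCDH, groups that overlapped (0.32, limma adjusted p = 0.179). It was at or near 0 in the libraries labelled SKBR3, at most 0.73 TPM. TGFB1, the ligand, fell in batch 2 (-0.65) and had -0.51 in batch 1 (not called). It rose in SK-Hep1 (0.14, under the all-gene median of 0.18) and in the libraries labelled SKBR3 (0.80). TGFB2, another ligand of the family, fell in SK-Hep1 (-1.29). Of the 14 other genes of the pathway, 2 rose and 2 fell of 14 tested in batch 2, 5 and 5 of 13 in SK-Hep1 and 6 and 0 of 12 in the libraries labelled SKBR3. Among all tested genes 47.3% rose in the libraries labelled SKBR3 and 37.3% in SK-Hep1, while 14.7% and 18.2% fell. In batch 1 limma called 0 of 7, also at an unadjusted p under 0.05, which found 0 lower in the libraries labelled SKBR3 too.

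CAV1 (chromosome 7, 116524785 to 116561184, plus strand) had its highest level in SK-Hep1, with 1060.0, 1120.0 and 1146 TPM in siControl and 566, 579 and 571 TPM in siGCDH. The groups were far apart, a ratio of 0.516 (log2 fold change -0.95, SE 0.04, limma adjusted p = 1.51e-06). In A375 batch 2 it went the other way, from 138, 132 and 130.1 TPM to 162, 151 and 147 TPM. The groups did not overlap (0.20, SE 0.05, limma adjusted p = 0.0192). That call was lost in the joint fit (limma adjusted p = 0.311), without the trend (limma adjusted p = 0.0667) and when siControl replicate 2, siControl replicate 3 or siGCDH replicate 1 was left out (adjusted p from 0.0564 to 0.0647).

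Batch 1 gave 61.2, 84.5 and 77.9 TPM against 60.0, 44.4 and 50.9 TPM for CAV1, lower without overlap and not called (-0.51, limma adjusted p = 0.124), except in the joint fit (limma adjusted p = 0.00247). That fit called many more of all genes in batch 1, 1408 higher and 4150 lower. The libraries labelled SKBR3 had 5.01, 5.37 and 5.04 TPM against 6.64, 10.6 and 8.32 TPM. The groups were apart (0.61, SE 0.16, limma adjusted p = 0.0116), and the difference was 0.38 after median scaling and not called (limma adjusted p = 0.0817).

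Of 7 other caveolar genes, 3 rose and 2 fell of 5 tested in batch 2, 2 and 2 of 6 in SK-Hep1, and 2 rose of 5 in the libraries labelled SKBR3. CAV2, which pairs with CAV1, fell in batch 2 (-1.10, from 27.8 to 12.5 TPM), had 0.14 in SK-Hep1 (not called) and rose in the libraries labelled SKBR3 (0.55). CAVIN1, a coat protein of caveolae, rose in batch 2 (0.48) and in the libraries labelled SKBR3 (0.36). In SK-Hep1 CAVIN3 rose (1.19, from 110.3 to 252 TPM) and CAVIN2 fell (-0.99).

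ANKRD1 (chromosome 10, 90912096 to 90921276, minus strand) encodes a nuclear and sarcomeric ankyrin repeat protein. Its promoter window is shown because it holds the most motif matches of any single window of the members: TEAD letters at -220 and -128 from the start site, an AP-1 match at -195 and an E-box at -116, all on the gene's strand and not overlapping. Of 7 members with windows in the RefSeq table (17 windows), TEAD letters were also found in AXL and ZEB1, and E-box letters in AXL, WNT5A and ZEB1. No windows of NGFR, SOX9 and SNAI2 were matched.
ANKRD1 chr10:90921038-90921337, minus strand: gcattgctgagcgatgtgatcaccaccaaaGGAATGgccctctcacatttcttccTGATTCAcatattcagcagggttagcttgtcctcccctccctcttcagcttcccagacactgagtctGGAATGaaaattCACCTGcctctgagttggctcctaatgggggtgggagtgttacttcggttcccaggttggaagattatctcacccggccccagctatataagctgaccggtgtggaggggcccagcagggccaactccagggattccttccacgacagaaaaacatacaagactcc

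ANKRD1 in A375 batch 2 was at 5.03, 5.46 and 4.98 TPM with siControl and at 12.4, 12.3 and 14.0 TPM with siGCDH. The groups were far apart, with a ratio of 2.50 (log2 fold change 1.17, SE 0.10, limma adjusted p = 0.00018). Batch 1 gave 1.64, 2.96 and 2.60 TPM against 7.01, 8.77 and 10.2 TPM, also without overlap. The log2 fold change was 1.51 (SE 0.28, limma adjusted p = 0.0212), and its difference from batch 2 was not called (-0.34, SE 0.27, limma interaction adjusted p = 0.544). The batch 1 call was lost with no filter (limma adjusted p = 0.0552), without the trend (limma adjusted p = 0.0558), with the replicate block (limma adjusted p = 0.0527) and without any 1 of the 6 libraries (adjusted p from 0.0504 to 0.0726).

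SK-Hep1 had the highest ANKRD1, 22.2, 22.3 and 24.8 TPM with siControl and 28.0, 29.2 and 29.4 TPM with siGCDH. All siGCDH libraries were higher (0.31, SE 0.07, limma adjusted p = 0.00707), and the difference was 0.20 after median scaling (limma adjusted p = 0.0376). It was not called in the joint fit (limma adjusted p = 0.0984). The libraries labelled SKBR3 were below 1 TPM, at 0.80, 0.91 and 0.92 TPM against 0.08, 0.31 and 0.37 TPM, a fall without overlap and without a test.

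Other YAP and TEAD genes are given for comparison, with 13 listed beside the members. In batch 2, 5 rose and 4 fell of 13 tested, with CCN2 at 1.04 (from 35.9 to 74.6 TPM), AMOTL2 at 0.72 and CCN1 at 0.34, and the co-activator WWTR1 (TAZ) at -0.39. In SK-Hep1, where ANKRD1 rose, 3 rose and 6 fell, with CCN2 at -1.54 (from 21.9 to 6.87 TPM), AMOTL2 at -1.05 and WWTR1 at -1.09. In the libraries labelled SKBR3 2 rose and 5 fell, with AMOTL2 at -1.15 and CCN2 at -0.54. In batch 1 TEAD4 (-1.15) and WWTR1 (-0.54) fell, and CCN2 had 0.26 (not called). YAP1 itself was called higher in SK-Hep1 (0.24, near the all-gene median of 0.18) and in no other comparison.

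**Figure D3:**
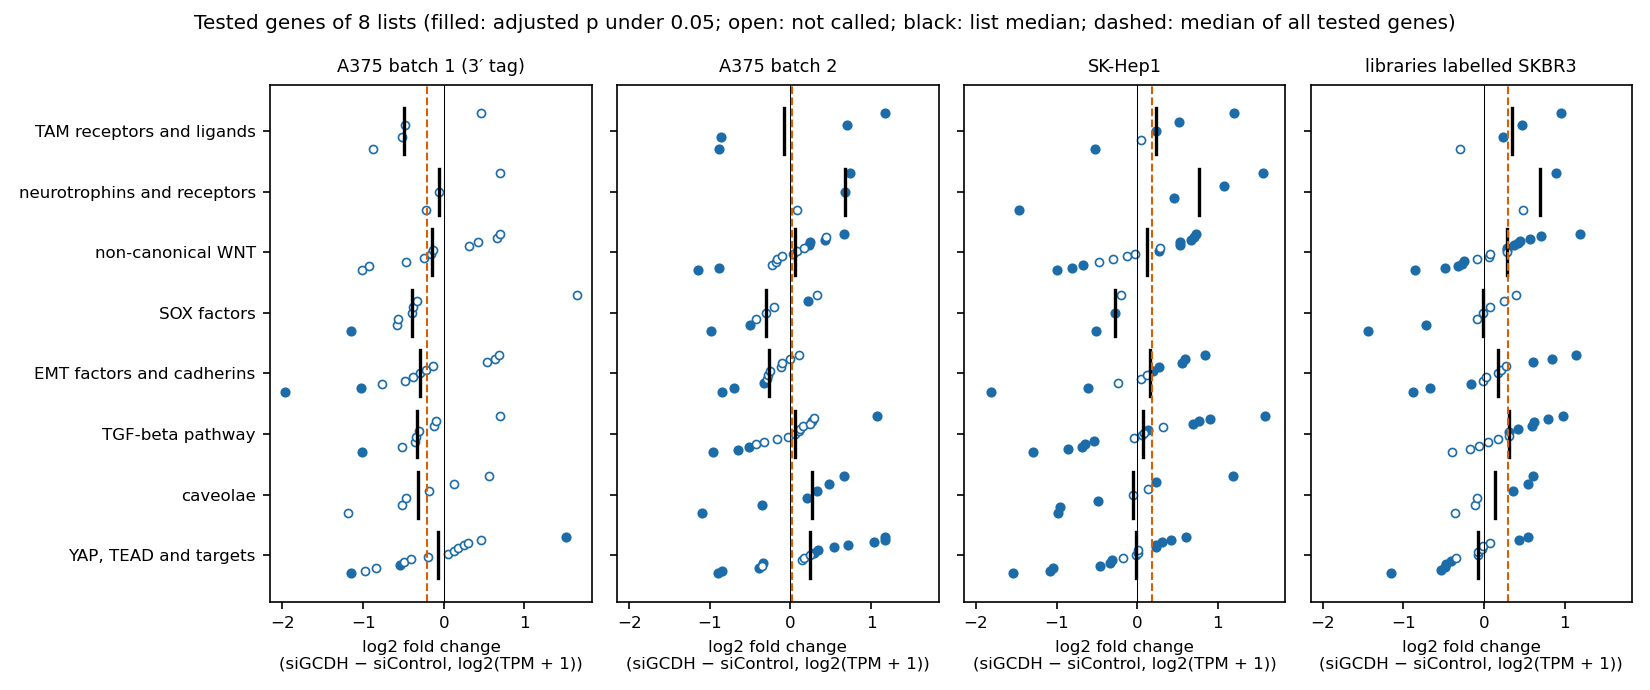
Log2 fold change of siGCDH against siControl (x axis, log2(TPM + 1) scale) for the tested genes of 8 lists, members included (y axis). Filled points have an adjusted p under 0.05, black lines are list medians and dashed lines the median of all tested genes. The YAP list has its median at 0.24 in A375 batch 2 and at -0.02 in SK-Hep1.

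The differences between the effects of siGCDH in 2 sets were tested as limma interactions, on the 12 libraries of each pair of sets. A higher value means that the log2 fold change of the set named first was the higher one, whatever the signs. Between A375 batch 2 and batch 1, the log2 fold change was higher in batch 2 for 3 of 8 members: AXL (1.17 against 0.46), NGFR (0.74 against -0.22) and CAV1 (0.20 against -0.51), the latter 2 genes with opposite signs in the batches. None of the 3 was called in batch 1, where the NGFR groups overlapped and the median of all genes was -0.20. Of all 14764 genes 4.78% were higher and 0.447% lower, which is 706 and 66 genes, with a median difference of 0.19. Limma called 0 members lower, and 0 were lower at an unadjusted p under 0.05. After median scaling 87 genes were higher and 86 lower, with a median difference of -0.03, and only 1 member was called.

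Between different lines, some members reached the TPM limit only through the line in which they were high, so their differences are given as values and their counts are not read against all genes. The shares of all genes given here cover every tested gene, also those below 1 TPM in either set. Between batch 2 and SK-Hep1, 7 members reached 1 TPM in both sets, of which 4 were higher (AXL, WNT5A, CAV1 and ANKRD1) and 3 lower (ZEB1, ZEB2 and TGFBI), where 17.4% and 28.8% of all genes were. The 3 others were NGFR (higher), SNAI2 (lower) and SOX9 (not called). Between batch 2 and the libraries labelled SKBR3, 5 members did so, of which ZEB1 and ZEB2 were lower, where 14.5% of all genes were higher and 36.8% lower. AXL, SOX9 and ANKRD1 (higher), TGFBI (lower) and SNAI2 (not called) were below 1 TPM in one of the sets. Between SK-Hep1 and the libraries labelled SKBR3, 6 members did so, of which 3 were higher (SOX9, ZEB1 and SNAI2) and 2 lower (WNT5A and CAV1), where 14.5% and 25.0% of all genes were. ANKRD1 (higher), AXL and TGFBI (not called) were below 1 TPM in the libraries labelled SKBR3.

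The log2(TPM + 1) scale understates the change of low genes, and differences that involve a line near 0 moved with the pseudocount. AXL, at 0.12 TPM in the libraries labelled SKBR3, differed from A375 batch 2 by 0.82, and by -0.08 with a pseudocount of 0.1. NGFR, at 0.08 TPM in SK-Hep1, differed by 0.62, and by 0.15 with the lower pseudocount (limma adjusted p = 0.711). The comparisons share libraries, so their values are not independent.

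**Figure D4:**
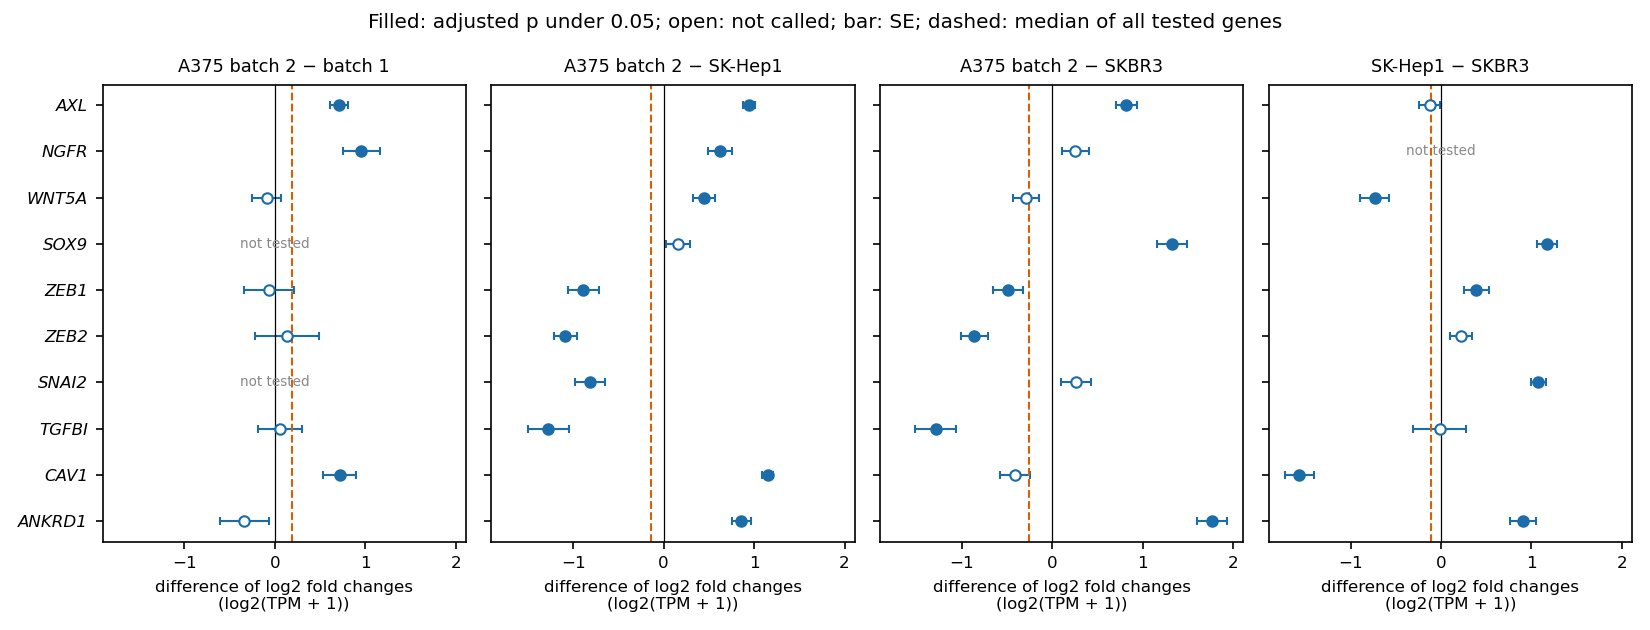
Difference of log2 fold changes (x axis, log2(TPM + 1) scale) between 2 sets of libraries for each gene (y axis). Bars are SE, filled points have an adjusted p under 0.05, and the dashed line is the median of all tested genes. CAV1 is at 1.15 for A375 batch 2 against SK-Hep1 and ANKRD1 at 1.76 for batch 2 against the libraries labelled SKBR3.

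Without siGCDH, the members stood at different levels in the 3 lines. These levels were compared in the 9 siControl libraries of the NEBNext kit. AXL, CAV1, SOX9, ZEB2 and ANKRD1 were highest in SK-Hep1, NGFR, WNT5A and TGFBI in A375 and SNAI2 in the libraries labelled SKBR3. Members below 1 TPM in one of 2 lines passed the filter only through another line, and are left out of the counts that follow. The shares of all genes beside these counts were not restricted in that way. Between A375 and SK-Hep1, 8 members remained, 3 of them higher in A375 and 5 lower, where 45.0% and 28.6% of 15880 genes were so. Between A375 and the libraries labelled SKBR3, 5 remained, 3 of them higher in A375 and 1 lower, against 34.4% and 40.2%. SK-Hep1 was higher than the libraries labelled SKBR3 for 4 of 6 and lower for 2, against 28.5% and 48.9%.

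The order of AXL was SK-Hep1 (192 ± 2.61 TPM, SD, n = 3), A375 (117 ± 1.00) and the libraries labelled SKBR3 (0.12 ± 0.0361). CAV1 had the same order, 1109 ± 44.1, 133 ± 4.45 and 5.14 ± 0.20 TPM, and so had ANKRD1, 23.1 ± 1.47, 5.16 ± 0.264 and 0.877 ± 0.0666 TPM. The steps between SK-Hep1 and A375 were called for all 3 genes. NGFR was at 17.3 ± 1.35 TPM in A375 and at most 1.11 TPM in both other lines, with means of 0.08 TPM in SK-Hep1 and 0.90 TPM in the libraries labelled SKBR3. TGFBI stood at 54.4 ± 6.80 TPM in A375, 10.03 ± 2.74 in SK-Hep1 and 0.0333 ± 0.0577 in the libraries labelled SKBR3. SOX9 and SNAI2, at 0.617 and 1.32 TPM in A375, were at 34.1 and 34.0 TPM in SK-Hep1 and at 5.16 and 57.0 TPM in the libraries labelled SKBR3. ZEB1 varied least, with 20.2 TPM in A375, 19.7 in the libraries labelled SKBR3 and 16.3 in SK-Hep1. A375 and the libraries labelled SKBR3 gave no call for it (0.04, limma adjusted p = 0.639), and its calls against SK-Hep1 (0.29 and -0.25) were lost after median scaling (0.11 and -0.13).

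Genes with the profile most like that of a member over the 6 NEBNext group means were found by the distance between centred log2(TPM + 1) values. For AXL these were FOSL1 (distance 0.711), LY6K (0.877) and EMP1 (0.973), and for ANKRD1 LINC02454 (0.760), DDX60L (0.796) and EHD2 (0.801). FOSL1, which encodes the AP-1 subunit FRA1, had 255 TPM with siControl and 520 TPM with siGCDH in A375 batch 2, and 349 and 639.5 TPM in SK-Hep1. In SK-Hep1, where AXL rose slightly, LY6K (247 and 190 TPM) and EMP1 (667 and 516 TPM) had lower means with siGCDH. ZEB1, the flattest member, had the closest neighbour, CCNB2 (0.081), and SOX9 and SNAI2 the most distant ones, MIR503HG (1.05) and NXN (1.05).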

How the data were processed

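The deposited values are TPM, which the authors made with RSEM 1.3.1 after cutadapt 2.3 and STAR 2.7.0d on hg38, per the submitters' processing notes. For annotation version and strand, nothing is given in the sources used here. Because TPM keeps no read totals, library depth is unknown and counting intervals could not be computed. RSEM divides reads among similar transcripts.

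Values were transformed to log2(TPM + 1) and fitted with limma 3.58.1 in R 4.3.3 (eBayes with a mean-variance trend, two-sided) over genes whose mean reached 1 TPM, with Benjamini-Hochberg adjustment over all of them. Every within-line comparison used its own 6 libraries, interactions on 12, and siControl levels on 9 libraries of 1 kit. Same-numbered replicates did not deviate together, so no block was used. Groups came from the sample labels. Counts of members between lines leave out those with a mean under 1 TPM in either line, a restriction chosen after seeing the data. It was not applied to the shares of all genes.

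The members and the 8 gene lists were chosen with earlier results of these data known. All members were named in every comparison. Of each list, up to 3 other called genes with the smallest adjusted p were named per comparison, plus direct partners of a member. A few genes so named are not reported here. For likeness, the 3 nearest genes were taken. Alternatives were pseudocounts of 0.1 and 5, a 5 TPM filter or none, median scaling, no trend, the replicate block, a joint fit, removal of ribosomal RNA rows in A375 batch 1, and leaving out each library. The fits were tested on simulated data. Python 3.11.15, numpy 2.4.6 and pandas 2.3.3 handled tables and promoter letters, and matplotlib 3.10.9 drew the figures.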

Additional observations from a re-analysis of the deposited data

Results flagged for a closer look

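Members whose response to siGCDH differed between 2 sets of libraries, by the limma interaction test with Benjamini-Hochberg adjustment, are given here as differences of log2 fold changes, the first set minus the second. Between A375 batch 2 and batch 1, which differ in library kit, the difference was 0.71 for AXL, 0.96 for NGFR and 0.71 for CAV1. The last had the smallest margin (limma adjusted p = 0.0466) and was not called in 10 of the 12 fits that left out 1 library.

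Between A375 batch 2 and SK-Hep1, the receptors and ligand AXL (0.95), NGFR (0.62) and WNT5A (0.45) and the genes CAV1 (1.15) and ANKRD1 (0.86) had the higher value in A375. The factors ZEB1 (-0.89), ZEB2 (-1.09) and SNAI2 (-0.81) and the matrix protein TGFBI (-1.28) had the lower one. NGFR was near 0 in SK-Hep1 and SNAI2 near 1 TPM in A375, so both passed the filter only through the other line.

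Between A375 batch 2 and the libraries labelled SKBR3, AXL (0.82), SOX9 (1.33) and ANKRD1 (1.76) were higher in A375, and ZEB1 (-0.49), ZEB2 (-0.86) and TGFBI (-1.29) lower. ZEB1 was not called when siControl replicate 3 of A375, siControl replicate 1, siControl replicate 3 or siGCDH replicate 2 of the other set was left out (limma adjusted p from 0.0524 to 0.0664). AXL, TGFBI and ANKRD1 were below 1 TPM in the libraries labelled SKBR3 and SOX9 in A375, so these 4 passed the filter only through the other set.

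Between SK-Hep1 and the libraries labelled SKBR3, SOX9 (1.17), ZEB1 (0.39), SNAI2 (1.08) and ANKRD1 (0.90) were higher in SK-Hep1, and WNT5A (-0.74) and CAV1 (-1.56) lower. The ZEB1 call was lost in 9 of the 12 fits that left out 1 library. SNAI2 rose slightly in the first line and fell in the second, without overlap in either. ANKRD1 passed the filter only through SK-Hep1.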

How the results depend on the processing

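Of 1604 recomputed values of 99 member results, 1474 kept their direction and side of the threshold, 77 lost the call, 22 gained it and 31 changed sign. The cause was not tested in any of these.

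The 2 members called in A375 batch 1 became 0 with no filter, 0 without the trend, 0 with the replicate block, 4 in the joint fit of 24 libraries, and 0 to 0 on leaving out each library. The 8 called in SK-Hep1 became 5 in the joint fit. The 3 called between the batches became 1 after median scaling, 1 with the replicate block and 1 to 3 on leaving out each library. The latter alternative was chosen after seeing the data, for all interactions. Same-numbered replicates did not pair (correlations from -0.063 to 0.139), and the block lost 4 calls of members (TGFBI and ANKRD1 in batch 1, NGFR and CAV1 between the batches) and gained 2 (ZEB1 in the libraries labelled SKBR3, CAV1 between batch 2 and SKBR3).

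Changes of sign, none of them a called value except AXL, were as follows. In batch 1, median scaling gave 0.0663 for WNT5A, and removal of the ribosomal RNA rows 0.0255 for NGFR, 0.15 for WNT5A and 0.0582 for ZEB1. In the libraries labelled SKBR3, median scaling gave -0.17 for WNT5A and -0.0250 for ZEB1. Between the batches, TGFBI was -0.10 with a pseudocount of 5, and median scaling gave ZEB2 -0.0890 and TGFBI -0.17. Between batch 2 and SKBR3, a pseudocount of 0.1 gave AXL -0.0779, NGFR -0.0587 and SNAI2 -0.34. Between SK-Hep1 and SKBR3, a pseudocount of 5 gave AXL 0.14 and TGFBI 0.15, and median scaling TGFBI 0.10. In siControl libraries ZEB1 was -0.0149 between A375 and SKBR3 after median scaling.

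On leaving out each library, WNT5A in SKBR3 ran from -0.0305 to 0.179. Between the batches ZEB1 ran from -0.227 to 0.0805, ZEB2 from -0.0998 to 0.480 and TGFBI from -0.0912 to 0.204. TGFBI between SK-Hep1 and SKBR3 ran from -0.239 to 0.192, and ZEB1 in siControl libraries between A375 and SKBR3 from -0.0071 to 0.0977. ZEB1 between batch 2 and SKBR3 and between SK-Hep1 and SKBR3 lost its call with no filter. The TPM scale and unknown depth limit values below 1 TPM.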
